A study of Drosophila melanogaster with 14 samples.

Results

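The mitochondrial ribosomal protein genes of *Drosophila melanogaster* were examined across flight muscle and wing disc libraries from flies with and without *Tet*. They were taken as every gene whose symbol in the flight muscle table begins with mRpL or mRpS followed by a digit. The rule found 73 of 17890 genes, of which 47 code for proteins of the large subunit and 26 for proteins of the small subunit. By FlyBase identifier, 71 of the 73 were matched in the wing disc table. The other members, mRpS5 and mRpS34, are listed there under other identifiers and stayed out of the wing disc counts.

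Mitochondria carry their own ribosomes, which translate the few respiratory chain and ATP synthase subunits that mitochondrial DNA still encodes. The ribosomal RNAs come from that DNA, whereas every protein of these ribosomes is encoded in the nucleus, made in the cytosol and imported. The large subunit forms peptide bonds and feeds the new chain towards the inner membrane, and the small subunit reads the messenger RNA. Some of the proteins descend from bacterial families and others were added in mitochondria. Insect flight muscle is among the tissues richest in mitochondria.

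RNA was measured by paired-end sequencing in dissected indirect flight muscle (IFM) of pupae late in metamorphosis, 96 h after puparium formation (APF) and in wing discs of late larvae in the wandering stage. TET proteins are dioxygenases that oxidize methylated cytosine, and the fly has a single *Tet* gene. In IFM there were 2 libraries each of wild type (genotype w11118 in the labels), Tet null, Tet catalytic dead (Tet-CD) and Tet-GFP flies. In wing disc there were 3 libraries each of wild type and Tet null.

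Tet null is a whole-body allele that makes no *Tet* mRNA and is lethal in pupae when homozygous. Tet-CD carries a catalytically inactive enzyme and was made in the Tet-GFP knock-in, so both Tet-CD and Tet-GFP flies carry the GFP tag and Tet-GFP is the control for Tet-CD. Wild type is the control for Tet null. Each tissue is a dissected mixture of cells, so fewer cells of a type and less RNA per cell cannot be told apart in any value below. One Tet null library of the IFM table carries a wing disc tissue label beside a flight muscle title and a pupal age, and its flight muscle marker RNAs were as high as in the other IFM libraries. Nothing in the labels says that libraries of a group came from separate collections of animals, so the p-values measure the spread between these libraries, which may be technical.

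*Tet* itself was at 0.405 and 0.219 RPKM (reads per kilobase of exon, scaled to library size) in Tet null IFM against 2.04 and 3.01 in wild type, and at 0.352 to 0.475 in Tet null wing disc against 148 to 205 in wild type. Reads assigned to genes were estimated at 33.3M to 46.7M reads per IFM library and 16.9M to 31.5M per wing disc library. These gave a median of 371 to 803 reads per member in IFM and 311 to 672 in wing disc. The wild type wing disc library 2 stood apart. Only 976 genes were at 0 in it, against 2376 to 3978 in the other wing disc libraries, and the median level of 186 chemosensory receptor genes was 2.01 RPKM there against 0.0475 to 0.138 elsewhere in wing disc. The main wing disc counts and medians are therefore given with and without this library, and changes of single members mostly with it only. The IFM values had been scaled in separate sets, Tet null with wild type and Tet-CD with Tet-GFP, so that a comparison across these sets rests on scalings made apart.

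The members were well expressed in flight muscle, spanning a 16.99-fold range of levels per length. In wild type IFM the highest were mRpL42 at 103 ± 3.77 RPKM, mRpL55 at 93.0 ± 6.51 RPKM and mRpL52 at 69.0 ± 2.76 RPKM (mean ± SD, n = 2), all 3 of them large subunit proteins that mitochondria added to the bacterial set. The lowest were mRpL11, of the stalk base where elongation factors dock, at 6.07 ± 2.74 RPKM, mRpL4, of the exit tunnel, at 6.25 ± 0.44 RPKM, and mRpS24 at 6.543 ± 1.36 RPKM. In wild type wing disc the order was another one. There mRpL33 (58.7 ± 11.8 RPKM), mRpL12 (57.6 ± 10.4 RPKM) and mRpS7 (54.4 ± 12.6 RPKM) led, and mRpS24 (6.10 ± 1.08 RPKM), mRpL34 (6.55 ± 1.504 RPKM) and mRpL21 (7.67 ± 1.18 RPKM) were lowest (n = 3). The 3 highest members of IFM lay apart by more than their SDs, whereas neighbours in the other trios did not. Over the 70 members above 0 in both tables, log2 levels in the 2 wild type tissues were related with a Pearson's r of 0.29 and a Spearman's rho of 0.27. These points share libraries and gene length, and the tables were scaled apart, so the relation is a description only. One member, mRpL53, was listed at 0 in all 14 libraries. In the annotation all of its exon sequence is shared with other genes, CG33155 on the same strand and AGO1 on the opposite strand. It entered no test. The other 72 were at 1.86 RPKM or more in every IFM library, so the limit on low values (a mean of 0.5 RPKM) removed no member with signal.

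In Tet null IFM nearly the whole family was lower than in wild type. The median RPKM over the 46 large subunit members was 11.1 and 9.13 in the 2 Tet null libraries against 17.7 and 21.6 in wild type. For the 26 small subunit members it was 13.9 and 10.1 against 21.8 and 22.1. The other IFM libraries lay above both Tet null libraries, at 15.1 and 23.1 (Tet-CD) and 15.8 and 21.96 (Tet-GFP) for the large subunit, and at 16.5 and 24.2 (Tet-CD) and 20.2 and 24.9 (Tet-GFP) for the small subunit, and the lower library of each pair was below both wild type libraries. In wing disc the direction was the opposite one, as the plot by library shows. There the median over all 70 members was 22.9 to 26.9 RPKM in Tet null and 15.5 to 23.3 RPKM in wild type, and these ranges overlapped.

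**Figure D1:**
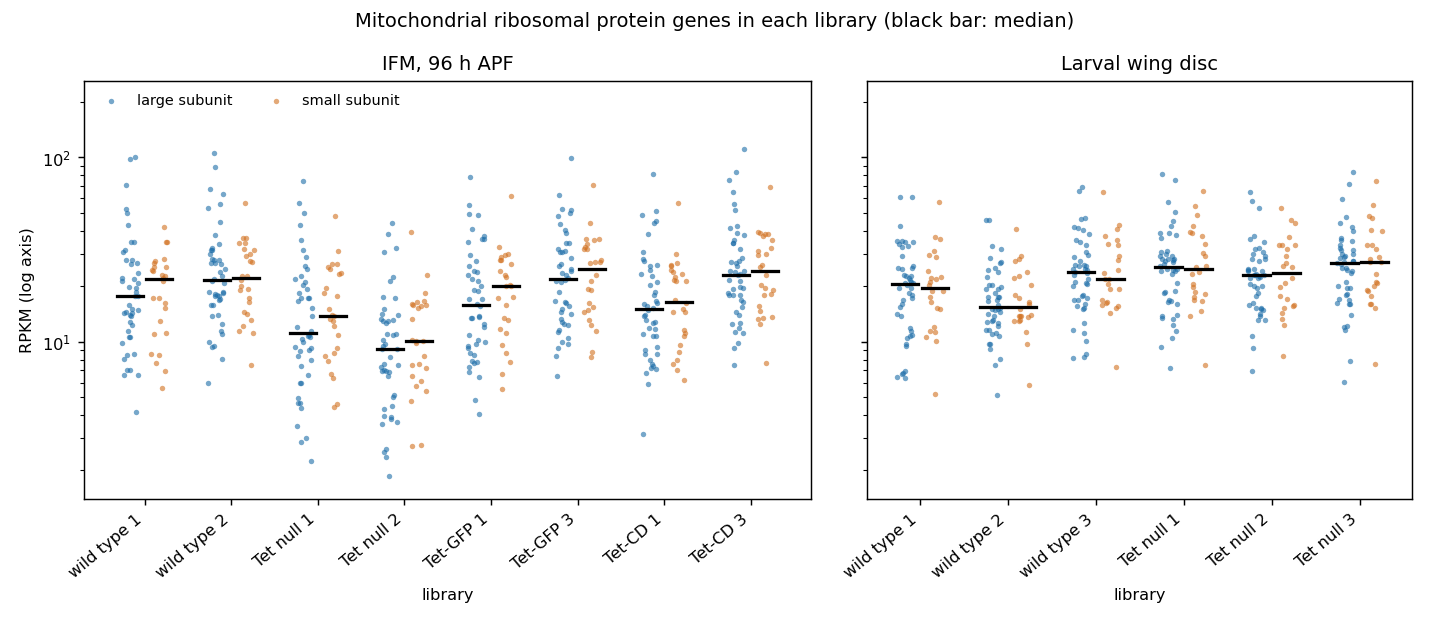
RPKM (log axis) of every member above 0 in each of the 14 libraries, large subunit in blue and small subunit in orange, with black bars at the median of each subunit. The 2 Tet null IFM libraries have the lowest medians of the 8 IFM libraries (large subunit 11.1 and 9.13 RPKM), and wild type wing disc library 2 has the lowest of the 6 wing disc libraries (15.5 RPKM).

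The comparison of Tet null with wild type IFM asks what the loss of the whole protein does. Of the 72 members tested, 71 had a log2 fold change below 0, and 7 fell by the call used throughout, a Benjamini-Hochberg adjusted p under 0.05 in limma over all genes tested with a change of more than 1.5-fold. None rose. Changes are on the scale of log2(RPKM + 0.5). The 7 make 9.72% of the members tested. Among all 8466 genes tested 2.79% were called lower and 5.5% higher. At an unadjusted p under 0.05 stood 36 members, 26 of the large and 10 of the small subunit, and 2268 of the 8466 genes. The median log2 fold change of the members was -0.81 (0.57 of the wild type level), with -0.90 for the large and -0.72 for the small subunit, beside -0.03 over all genes. In 60 members (40 large, 20 small) both Tet null libraries were below both wild type libraries, which held for 30.2% of all genes tested.

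All 7 members that fell belong to the large subunit. The deepest fall was that of mRpL55, a protein added in mitochondria (FBgn0038678). It stood at 97.6 and 88.4 RPKM in wild type IFM and at 25.8 and 10.98 RPKM in Tet null, with Tet-CD at 48.8 and 75.5 and Tet-GFP at 41.0 and 48.1. The Tet null libraries were thus below all others, and the tagged libraries were below wild type. Its log2 fold change in Tet null against wild type was -2.43 ± 0.45 (SE, limma adjusted p = 0.0497). mRpL37 (FBgn0261380), another mitochondrial addition, was at 14.4 and 16.9 RPKM in wild type, 3.003 and 2.61 in Tet null, 12.7 and 21.3 in Tet-CD and 6.44 and 9.29 in Tet-GFP. The Tet null values were the lowest of the 8, and the change of -2.29 ± 0.21 had the smallest adjusted p of the family (0.0208). mRpL36 (FBgn0042112), the counterpart of a very small bacterial protein that binds zinc, was at 14.4 and 23.9 RPKM in wild type and 4.37 and 3.91 in Tet null. It changed by -2.04 ± 0.31 (adjusted p = 0.0372), while its Tet-CD values (13.8 and 23.0 RPKM) and Tet-GFP values (12.5 and 21.7 RPKM) lay close to wild type.

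The other 4 changed by less but in the same way. mRpL13, whose bacterial counterpart is one of the first proteins to join the assembling subunit, stood at 13.8 and 17.8 RPKM in wild type and at 4.63 and 4.31 RPKM in Tet null (-1.70 ± 0.23, adjusted p = 0.0309). Its Tet-GFP libraries lay far apart at 8.50 and 23.7 RPKM, and 35.2% of its exon sequence is shared with CG10602 on the same strand, so that its reads are less certain. mRpL15 read 8.55 and 11.5 RPKM in wild type IFM but 3.50 and 2.35 RPKM in the mutant (-1.62 ± 0.28, adjusted p = 0.0446), and mRpL21 at 6.57 and 9.48 against 2.84 and 1.86 RPKM (-1.58 ± 0.30, adjusted p = 0.0496). Both have bacterial counterparts. mRpL50, a mitochondrial addition, was at 19.6 and 26.3 against 8.85 and 6.97 RPKM (-1.47 ± 0.27, adjusted p = 0.0476). In none of the 7 did a Tet null library reach any of the other 6 IFM libraries.

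In the small subunit none passed. The largest differences there were those of mRpS23 (-1.46 ± 0.35, adjusted p = 0.0785), at 8.57 and 13.2 RPKM in wild type and 4.58 and 2.74 in Tet null, and mRpS11 (-1.31 ± 0.28, adjusted p = 0.0656), at 25.3 and 34.3 against 13.3 and 10.1 RPKM. In each of them the groups did not overlap. At the other end, mRpL18 was the only member above 0 (0.03 ± 0.28, adjusted p = 0.96). Its bacterial counterpart binds the small ribosomal RNA of the large subunit, and it read 22.7 and 15.1 RPKM in Tet null against 17.8 and 18.5 in wild type. The members nearest to it were mRpS6 (-0.13), mRpS5 (-0.16) and mRpS17 (-0.17), all of the small subunit, with overlapping groups.

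**Figure D2:**
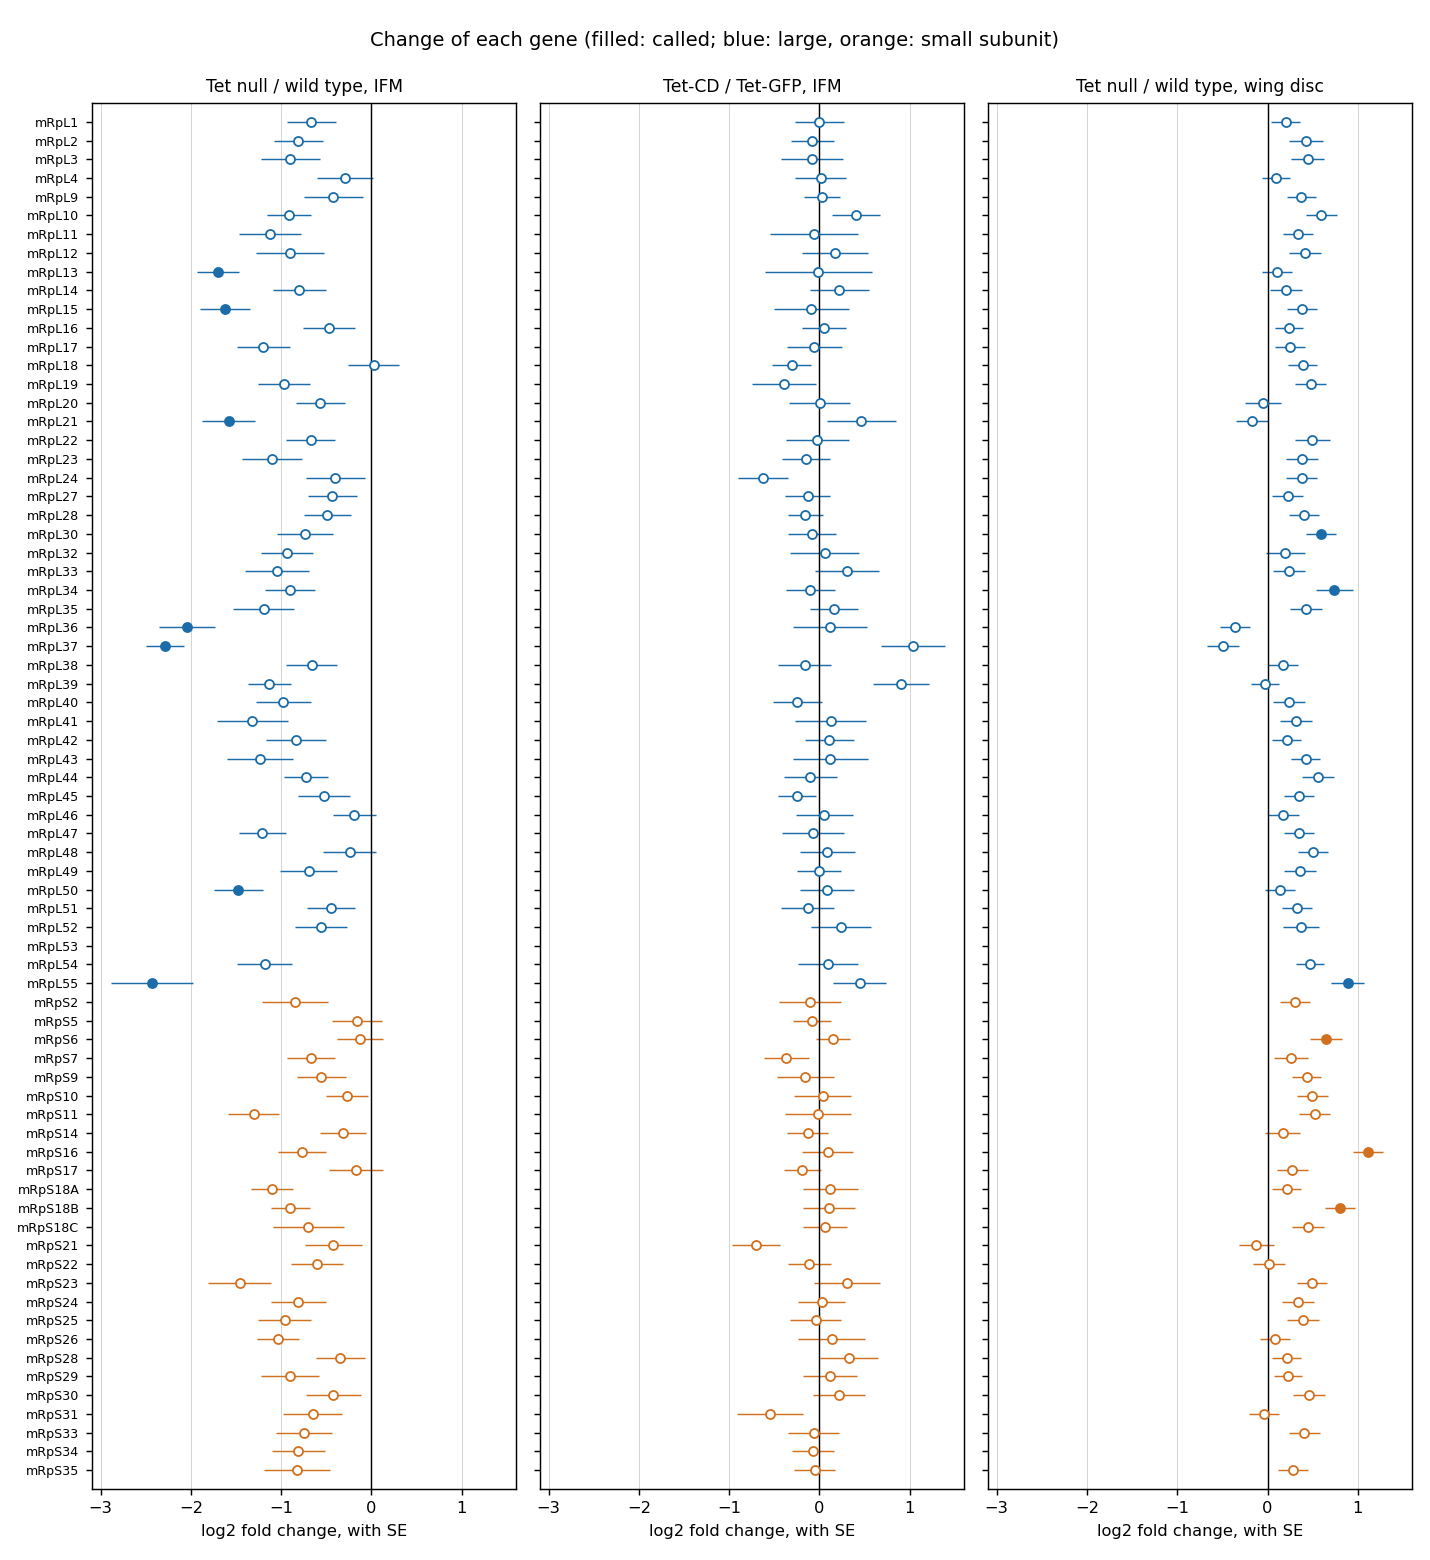
Log2 fold change (x axis, with bars of 1 SE) of each member in Tet null against wild type IFM, Tet-CD against Tet-GFP IFM and Tet null against wild type wing disc, large subunit in blue, small subunit in orange, called genes filled. In the first panel 71 of 72 lie below 0, in the second 37 of 72, and in the third 7 of 70.

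Another 10 members missed the call by little, with adjusted p values under 0.1, a set picked after the values were seen. Those not described above include mRpL47, at 15.8 and 21.3 RPKM in wild type and 8.41 and 6.997 in Tet null (-1.21, adjusted p = 0.0644), and mRpL39, at 14.0 and 18.7 against 7.35 and 6.91 (-1.13, adjusted p = 0.0649). In the small subunit mRpS18A was at 25.5 and 22.7 RPKM in wild type and 12.2 and 9.81 in Tet null (-1.10, adjusted p = 0.0652), and mRpS26 was at 16.2 and 19.3 against 9.22 and 7.60 (-1.03, adjusted p = 0.0723). The remaining ones were mRpL17 (-1.20, adjusted p = 0.0826), mRpS18B (-0.90, adjusted p = 0.0837), mRpL54 (-1.18, adjusted p = 0.0928) and mRpL10 (-0.91, adjusted p = 0.0959). In all 10 both Tet null libraries were below both wild type libraries.

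The core functions of the ribosome showed the same direction without passing the test singly. Of the proteins around the peptidyl transferase centre and the exit tunnel, mRpL2 had a log2 difference of -0.81 (adjusted p = 0.151), mRpL3 of -0.90 (adjusted p = 0.176) and mRpL4 of -0.29 (adjusted p = 0.6). Of the stalk, which recruits the translation factors, mRpL10 stood at -0.91 (adjusted p = 0.0959), mRpL11 at -1.12 (adjusted p = 0.128) and mRpL12 at -0.90 (adjusted p = 0.215). mRpL12 was at 42.8 and 63.6 RPKM in wild type and 35.7 and 21.4 in Tet null, so its replicates differed nearly as much as its groups. mRpL45, which in human holds the ribosome to the inner membrane, stood at -0.53 (adjusted p = 0.322), and mRpL44, which resembles a bacterial RNA-cutting enzyme, at -0.72 (adjusted p = 0.156). In the small subunit mRpS2, of a bacterial family, was at -0.85 (limma adjusted p = 0.227). There mRpS7, of the head of the subunit, was at -0.67 (adjusted p = 0.2), and mRpS29, a GTP-binding protein known in human as DAP3, at -0.90 (adjusted p = 0.164).

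Members numbered as bacterial families and those with higher numbers were also read apart. This split went by number alone and was not checked protein by protein. The median log2 fold change in Tet null against wild type IFM was -0.90 for 28 large subunit members numbered as bacterial families. It was -0.91 for 18 with higher numbers. In the small subunit it was -0.61 for 14 members numbered as bacterial families and -0.81 for 12 with higher numbers. No test of these differences was run. Within the family the length of the exons and the level of a member bore little relation to its change. Pearson's r over 72 members was 0.14 for log10 length and 0.18 for log2 level, points that share the same libraries. A length correction fitted over all genes moved the median of the members from -0.81 to -0.62. With it 69 of 72 were below 0 and 26 were at an unadjusted p under 0.05 in limma.

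How far single members pass depends on every library. When any 1 of the 4 was left out, no member was called. In 3 of these fits no gene of any kind was called in either direction, and the fit without wild type library 1 called 35 lower and 12 higher of 8414, so that nothing about the members can be read from the lost calls. Without Tet null library 2 the median change was -0.53 with 67 members below 0, and without Tet null library 1 it was -1.05 with all 72 below 0. Tet null library 2 was the lowest of the 8 IFM libraries for 68 of 72 members and lay below Tet null library 1 in 70 of 72, by a median of -0.48 on the log2 scale. Such shifts of the family between libraries of 1 group occurred in every IFM group. The ratio was -0.31 in wild type, with library 1 below library 2 in 64 members, -0.57 in Tet-CD, with library 1 below library 3 in all 72, and -0.37 in Tet-GFP, with library 1 below library 3 in 69.

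The Tet-GFP libraries give another comparison for Tet null, one that shares the Tet null libraries with the first and crosses the separately scaled sets. No member was called in either direction by limma, with 31 members and 2230 of 8369 genes at an unadjusted p under 0.05. Of all genes 0% were called lower and 0.0119% higher, so no member could stand out by the call. Of 72 members 71 were below 0, the median was -0.70 (large -0.81, small -0.66) against -0.04 over all genes, and in 58 (38 large, 20 small) both Tet null libraries lay below both Tet-GFP libraries, as in 33% of all genes. The lowest values were those of mRpL36 (-1.87), mRpS21 (-1.67) and mRpL15 (-1.62), and the highest were mRpS6 (0.03), mRpS28 (-0.09) and mRpL39 (-0.21). In 44 members (31 large, 13 small) both Tet null libraries were below all 6 other IFM libraries, which was the case for 16.9% of genes.

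The small subunit member mRpS21 stood lower against Tet-GFP than against wild type. It was at 8.71 and 7.46 RPKM in Tet null, 8.43 and 14.2 in wild type, 14.5 and 18.1 in Tet-CD and 22.4 and 31.9 in Tet-GFP. Tet null and wild type thus overlapped, and Tet-GFP was above every other IFM library. With all 4 IFM groups in 1 fit, mRpS21 was the only member called in Tet null against Tet-GFP (-1.67, adjusted p = 0.0456), where 1.37% of 8369 genes were called lower and 2.29% higher, so that 1 of 72 members is near the background. In the annotation 48% of its exon sequence lies opposite CG8870, and the strand setting of the counting is not given in the sources used here.

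Between the controls, Tet-GFP against wild type, no member was called by limma and 5 were at an unadjusted p under 0.05, beside 843 of 8156 genes. Of all genes 0% were called in either direction. The median was -0.10, with 52 of 72 below 0. This count fell to 42 with a median of -0.05 when the libraries of these groups were brought to 1 scale. The lean turned with a length correction (33 below 0, median 0.02), without wild type library 2 (23 below 0, median 0.07) and without Tet-GFP library 1 (22 below 0, median 0.09), so these data give the family no direction between the controls. The largest differences were mRpL55 (-1.06), mRpL37 (-0.97) and mRpL39 (-0.92) on the lower side and mRpS21 (1.25), mRpS31 (0.66) and mRpL4 (0.63) on the upper.

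**Figure D3:**
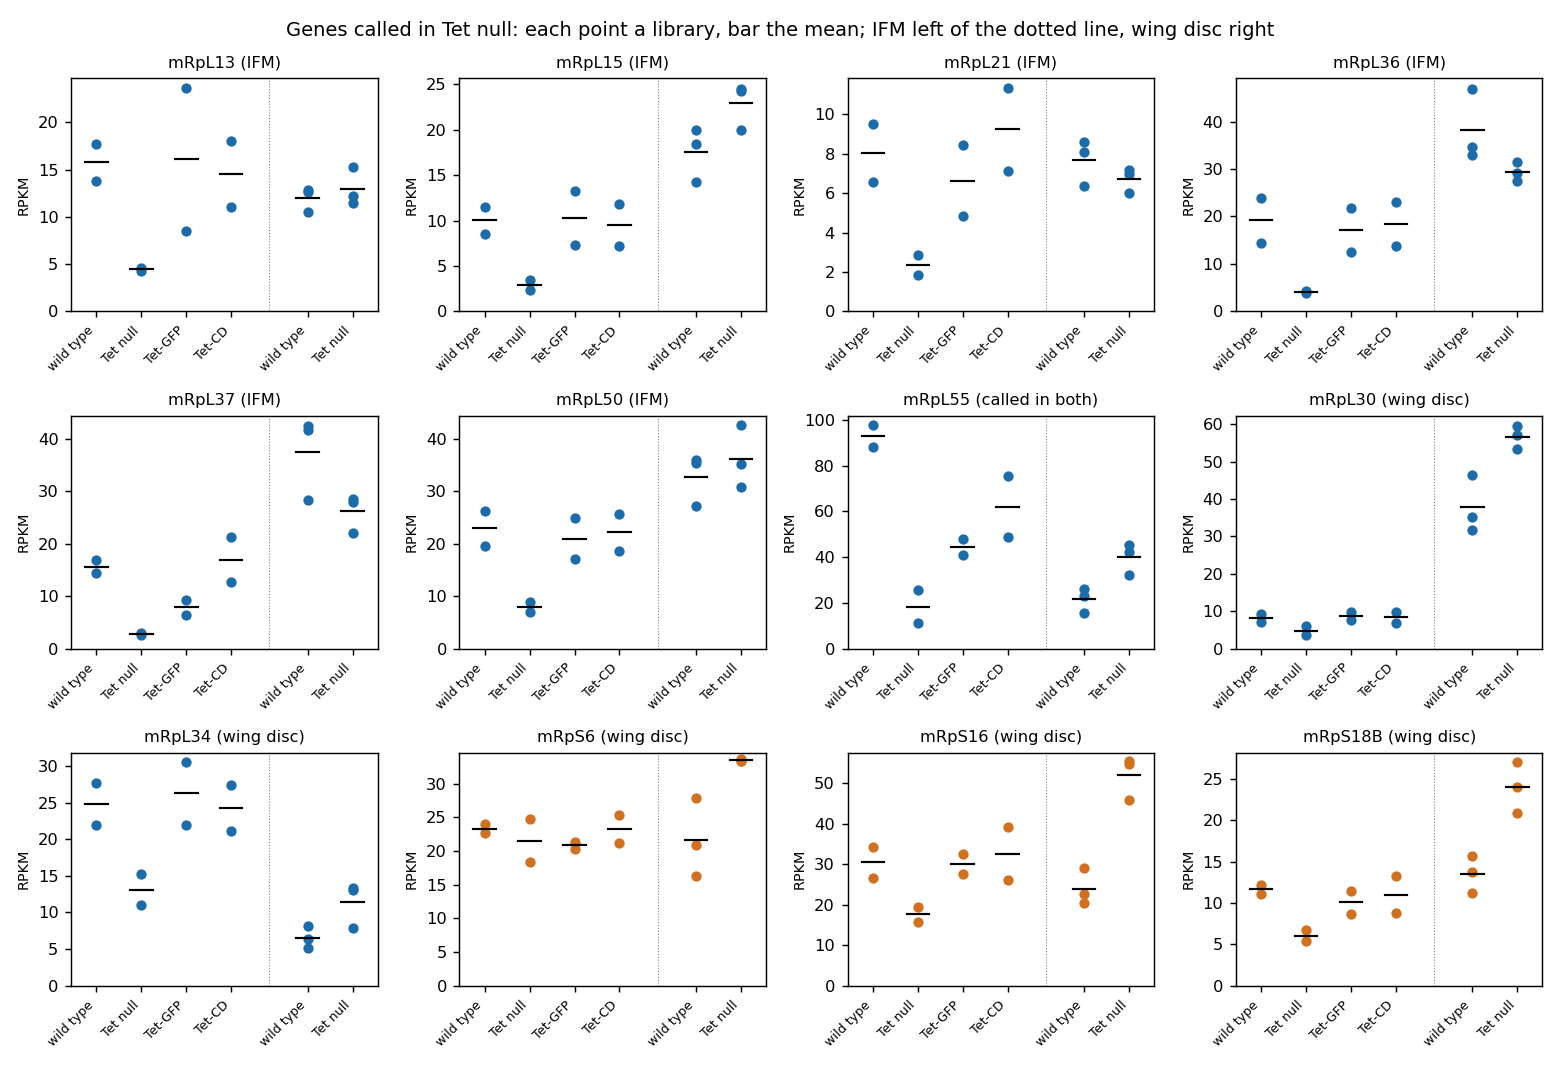
RPKM of each library (points) and group mean (bars) for the 12 members called in Tet null, with IFM groups left of the dotted line and wing disc groups right of it. For the 7 members called in IFM both Tet null points lie below the other 6 IFM points, and mRpL55 is lower in Tet null IFM (25.8 and 10.98 RPKM) and higher in Tet null wing disc (32.3 to 45.3 RPKM).

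Loss of the catalytic activity alone was tested by Tet-CD against Tet-GFP. The family was split, with 37 members below 0 and 35 above, a median of -0.00 and no call in limma, where 0% of 8141 genes were called in either direction. Only mRpL37 (1.04 ± 0.35) and mRpL39 (0.90 ± 0.31) were at an unadjusted p under 0.05, among 494 genes. mRpL39 was at 13.1 and 19.3 RPKM in Tet-CD, 6.88 and 10.0 in Tet-GFP, 14.0 and 18.7 in wild type and 7.35 and 6.91 in Tet null. Its Tet-CD values lay with wild type and its Tet-GFP values closer to Tet null. The lowest members were mRpS21 (-0.71), mRpL24 (-0.63) and mRpS31 (-0.54), and the highest after these was mRpL21 (0.46). The median moved between -0.29 and 0.28 as single libraries were left out, so its size is within the spread between replicates. Library 1 lay below library 3 in both groups. The median RPKM over the members was 15.5 and 23.2 in Tet-CD and 17.1 and 22.6 in Tet-GFP. Leaving out 1 library unbalances this shared shift.

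The change in Tet null IFM was then set against that in Tet-CD IFM within 1 fit. The difference, the log2 change in Tet null over wild type minus that in Tet-CD over Tet-GFP, was below 0 in 68 of 72 members, with a median of -0.75 (large -0.81, small -0.71) against -0.01 over all genes. With single libraries left out the median ranged from -1.03 to -0.48. With a length correction it was -0.56, with 66 members below 0. One member was called lower, mRpL37 (-3.33 ± 0.42, adjusted p = 0.0436), and none higher, beside 0.455% and 0.228% of 8344 genes. The call was lost when any library other than Tet-CD 1 was left out, at adjusted p between 0.0809 and 0.139 in those 7 fits. It was also lost when genes of any level were tested (adjusted p = 0.0544). For mRpL37 the parts of this difference were -2.29 in Tet null against wild type and 1.04 in Tet-CD against Tet-GFP. The next largest differences were mRpL55 (-2.87, adjusted p = 0.0913) and mRpL36 (-2.16, adjusted p = 0.132). On the other side were mRpS17 (0.02), mRpL24 (0.23), mRpS21 (0.29) and mRpL18 (0.33). Across the 72 members the 2 changes were related with a Pearson's r of -0.47 and a Spearman's rho of -0.38, against -0.19 and -0.06 across all genes tested in both, over libraries shared by every point.

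In wing disc, where the muscle precursors of the adult reside, the family leaned the other way. Of 70 members tested in Tet null against wild type, 63 were above 0, 6 rose and none fell. Of 12631 genes tested 1.67% were called higher and 2.48% lower. The median log2 fold change was 0.35 (large 0.35, small 0.33) beside -0.08 over all genes tested. Over the 8053 genes with a mean of at least 2 RPKM, which include all 70 members, it was 0.12. With the median of the chemosensory receptor genes subtracted (chosen after seeing the data) it was 0.17 over all genes and 0.42 for the members. In the main limma fit 35 members and 2238 of the 12631 genes were at an unadjusted p under 0.05. In 23 members every Tet null library was above every wild type library, as in 13% of genes, and in 1 member, mRpL36, every one was below, as in 12.5% of genes. Without wild type library 2 these counts were 23 and 4, beside 21.1% and 19% of 9724 genes. With the replicate number as a block, 7 members rose (mRpL10 was added) and the calls over all genes went from 524 to 936.

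The largest rise was that of mRpS16, a small subunit protein of a bacterial family, at 54.7, 45.9 and 55.5 RPKM in Tet null and 22.6, 20.3 and 29.0 in wild type (1.11 ± 0.17, adjusted p = 0.000199). The groups were well apart. mRpL55, the member that fell most in IFM, was at 45.3, 32.3 and 42.1 against 23.1, 15.8 and 25.9 RPKM (0.89 ± 0.19, adjusted p = 0.00633). mRpS18B, 1 of 3 fly proteins of the bacterial S18 family, was at 24.0, 20.9 and 27.1 against 11.3, 13.7 and 15.6 RPKM (0.81 ± 0.17, adjusted p = 0.00547), while its relatives mRpS18A (0.21) and mRpS18C (0.45) did not pass. In all 3 of these genes the lowest Tet null library was above the highest wild type library.

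The other 3 rises were smaller. mRpL34 was at 13.3, 13.1 and 7.83 RPKM in Tet null and 6.40, 5.12 and 8.12 in wild type (0.74 ± 0.21, adjusted p = 0.0442), and it is the only one of the 6 whose groups overlapped. mRpS6, almost flat in Tet null IFM, was at 33.7, 33.4 and 33.4 against 20.96, 16.4 and 27.8 RPKM (0.65 ± 0.18, adjusted p = 0.0375). mRpL30 was at 57.1, 53.4 and 59.6 against 35.1, 31.8 and 46.5 RPKM (0.59 ± 0.17, adjusted p = 0.047). The lowest log2 values in wing disc were those of mRpL37 (-0.49, adjusted p = 0.132), mRpL36 (-0.36, adjusted p = 0.256) and mRpL21 (-0.17, adjusted p = 0.618), 3 of the 7 members that fell in IFM. mRpL36 was at 29.1, 27.5 and 31.4 RPKM in Tet null and 34.7, 33.0 and 46.9 in wild type.

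Another 5 members had adjusted p values under 0.1 in wing disc, again a set picked after the values were seen, and all were above wild type. mRpL10, of the stalk base, was at 12.3, 10.7 and 14.0 RPKM in Tet null and 6.70, 9.08 and 8.23 in wild type (0.59, adjusted p = 0.0525), and mRpL48 was at 13.9, 13.8 and 17.1 against 9.77, 9.71 and 11.6 (0.50, adjusted p = 0.0834). In these 2 genes the groups did not overlap. mRpL44 was at 28.1, 22.9 and 30.1 against 17.2, 14.5 and 23.5 (0.56, adjusted p = 0.0809), so that 1 wild type library passed the lowest Tet null library. mRpS23 (0.49, adjusted p = 0.0956) and mRpL54 (0.47, adjusted p = 0.0958), both also in the near set of IFM with the opposite sign, completed them. Of the ribosome's core proteins mRpL12 stood at 0.41 in wing disc, mRpL2 at 0.42, mRpL3 at 0.44, mRpL45 at 0.35, mRpS2 at 0.31 and mRpS29 at 0.23, none of them called.

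The wing disc values depend on wild type library 2, which was the lowest of the 6 libraries for 50 of 70 members. Without it 59 members were above 0 with a median of 0.23 beside 0.02 over all genes, mRpS16 was the only member called higher, and mRpL37 was called lower (-0.68, adjusted p = 0.0424), in a fit that called 127 of 9724 genes higher and 162 lower. Without wild type library 3, the highest of the wild type libraries, 14 members rose, beside 459 of 13667 genes called higher and 459 lower. Without Tet null library 1, 3 rose, beside 169 of 13763 genes called higher and 268 lower.

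Read together gene by gene, 62 of the 70 members tested in both tissues (88.6%) were below 0 in IFM and above 0 in wing disc, against 34.3% of 7645 genes. In 19 of them (10 large, 9 small) this held for every pair of libraries in each tissue. That is 27.1% of the members and 5.76% of all genes. Without wild type wing disc library 2 the signs were opposite in 58 members (82.9%, against 32.2% of 6861 genes), and 19 members had no overlap in either tissue, beside 7.23% of genes. With all libraries the 19 are mRpL3, mRpL10, mRpL11, mRpL19, mRpL28, mRpL30, mRpL43, mRpL47, mRpL54, mRpL55, mRpS9, mRpS10, mRpS16, mRpS18B, mRpS23, mRpS24, mRpS25, mRpS29 and mRpS35. Only mRpL55 was called in both tissues. Across the 70 members the sizes of the changes in IFM and wing disc were hardly related (Pearson's r 0.17, Spearman's rho 0.03), as the plot of the tissues against each other shows.

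**Figure D4:**
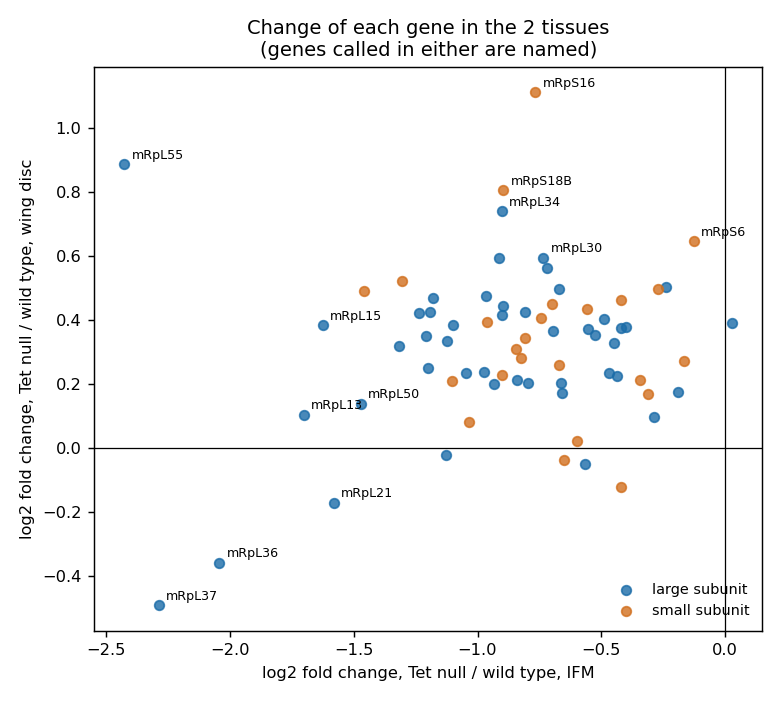
Log2 fold change in Tet null against wild type in IFM (x axis) and in wing disc (y axis) for the 70 members tested in both, large subunit in blue and small subunit in orange, with the genes called in either named. Of the 70 points 62 lie at the upper left, below 0 in IFM and above 0 in wing disc, and mRpL37, mRpL36 and mRpL21 lie below 0 in both tissues.

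The surrounding machinery of mitochondrial gene expression was described by lists of genes. Outside the naming rule, 5 more proteins tied to the mitochondrial ribosome were tested in Tet null against wild type IFM, and 3 fell. They are tko, the fly S12 protein of the decoding centre (-1.90, adjusted p = 0.0348), bonsai, the S15 protein (-1.97, adjusted p = 0.0282), and CG4679 (-2.23, adjusted p = 0.0266). CRIF (-0.83, adjusted p = 0.208) and CG6094 (-0.65, adjusted p = 0.275) did not pass. At least tko and bonsai belong to the small subunit. Calls in Tet null IFM were thus not limited to the large subunit once genes outside the rule were read.

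Of 12 mitochondrial translation factors 10 were below 0, with a median of -0.64, and 1 fell, GatA, a subunit of the enzyme that completes glutaminyl-tRNA (-1.66, adjusted p = 0.0324). All 13 mitochondrial aminoacyl-tRNA synthetases tested were below 0, with a median of -0.72, and 2 fell, SerRS-m (-1.32, adjusted p = 0.0335) and AsnRS-m (-1.11, adjusted p = 0.0424). Among 13 factors that maintain mitochondrial DNA and RNA 12 were below 0, with a median of -0.51 and no call. The list of the respiratory chain was nearer to the background. Of 67 nuclear genes of the respiratory chain 58 were below 0, with a median of -0.17, none fell and 1 rose. Cytosolic ribosomal proteins, the parallel machinery of the cytosol, had a median of -0.42 over 84 genes, of which 82 were below 0 and 1 fell. Against Tet-GFP that median was only -0.10.

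**Figure D5:**
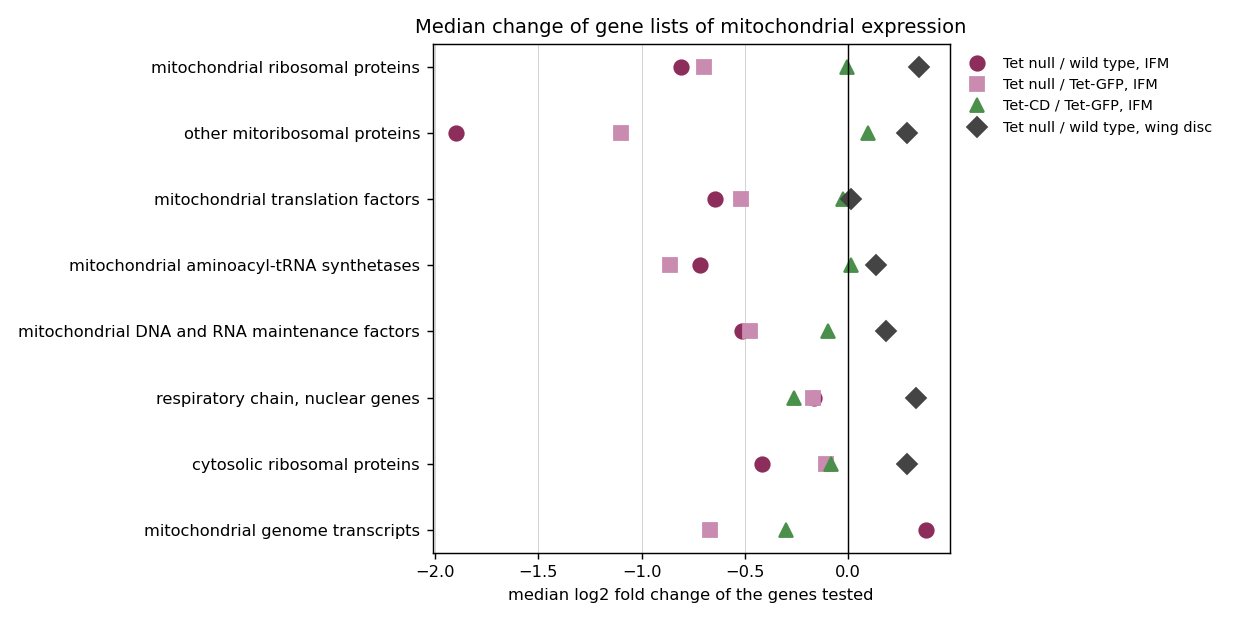
Median log2 fold change (x axis) of the genes tested in each of 8 lists, for Tet null against wild type IFM (circles), Tet null against Tet-GFP IFM (squares), Tet-CD against Tet-GFP IFM (triangles) and Tet null against wild type wing disc (diamonds). The mitochondrial ribosomal proteins stand at -0.81, -0.70, -0.00 and 0.35, and the nuclear respiratory chain genes at -0.17, -0.17, -0.26 and 0.33.

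In wing disc the same lists had medians of 0.29 (other mitoribosomal proteins, 5 genes), 0.01 (translation factors, 13 genes), 0.13 (synthetases, 15 genes), 0.19 (maintenance factors, 17 genes), 0.33 (respiratory chain, 78 genes, 3 called higher) and 0.29 (cytosolic ribosomal proteins, 88 genes, 2 called higher). The members' median of 0.35 was thus near those of the respiratory chain and of cytosolic ribosomal proteins there. Without wild type library 2 the medians were 0.23 for the members, 0.16, 0.08, 0.19 and 0.12 for the first 4 lists, 0.21 for the respiratory chain and 0.16 for cytosolic ribosomal proteins. Transcripts of the mitochondrial genome took 31.0% to 47.8% of the estimated reads in IFM and were listed at 0 in all wing disc libraries, so they were read in IFM only, where 32 tested had a median of 0.38 in Tet null against wild type and 33 a median of -0.67 in Tet null against Tet-GFP.

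Markers of some other cells moved with the Tet null genotype. In IFM, 11 flight muscle markers summed to 36278 to 46671 RPKM in Tet null and 37919 to 42945 RPKM in wild type, with no call and none at 0. Neuronal markers summed to 90.7 to 108 RPKM against 19.7 to 20.8 (8 of 10 called higher), glial markers to 123 to 190 against 50.5 to 79.5 (1 of 6 tested called higher), and gut markers to 166 to 177 against 2.15 to 2.54 (2 of 3 tested called higher, with Jon25Bi and betaTry at 0 in both Tet null libraries). Cuticle markers of epidermis summed to 136 to 224 RPKM against 959 to 1279 (7 of 7 called lower), with 640 to 1158 in Tet-CD and 577 to 581 in Tet-GFP. Markers of trachea summed to 14.5 to 19.5 RPKM against 27.4 to 37.4 (none of 4 tested called). In Tet-CD they stood at 15.3 to 29.5 RPKM and in Tet-GFP at 11.6 to 11.9. Hemocyte markers summed to 7.38 to 14.8 RPKM in Tet null and 9.24 to 15.5 in wild type, with no call. Fat body markers summed to 20.1 to 96.7 RPKM against 62.2 to 128, also with no call. They summed to 146 to 249 RPKM in Tet-CD and 54.4 to 69.4 in Tet-GFP. The neuronal sums were 29.6 to 48.7 RPKM in Tet-CD and 19.2 to 47.1 in Tet-GFP. The part of these markers in the values of the ribosomal proteins was not tested.

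In wing disc, markers of fat body summed to 167 to 241 RPKM in Tet null against 33.3 to 90.5 in wild type (5 of 5 tested called higher), those of hemocytes to 26.6 to 47.0 against 9.07 to 22.9 (3 of 6 called higher), and those of disc epithelium to 496 to 555 against 337 to 470 (2 of 6 called higher). Markers of trachea summed to 416 to 453 RPKM against 218 to 318 (1 of 4 tested called higher). Markers of the muscle precursors of the disc summed to 33.9 to 41.5 RPKM against 58.1 to 83.9 (2 of 5 called lower). Without wild type library 2 the ranges in wild type were 9.07 to 17.9 RPKM for hemocytes, 443 to 470 for disc epithelium, 316 to 318 for trachea, 69.9 to 83.9 for muscle precursors and unchanged for fat body. Their part in the wing disc values was likewise not tested.

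The members share features that the naming rule did not use. In the BDGP6.54 annotation their exons add up to a median of 783 bases, against 1734 bases over protein-coding genes of the table. They lie on X (11), 2L (12), 2R (12), 3L (17) and 3R (21). mRpL55 occupies 3R from 19094394 to 19094905 on the minus strand, mRpL37 3R from 10782563 to 10784092 on the minus strand and mRpL36 3L from 8124584 to 8125132 on the minus strand, and none of these 3 shares exon sequence with another gene. mRpL15 (3L, 20435110 to 20436209), mRpL21 (3L, 19253290 to 19255061) and mRpL50 (3L, 7243080 to 7243933) are also on minus strands, as is mRpL13 on 2L (18858028 to 18859248).

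Exons overlapped those of another gene in 43 members (58.9%, against 34.3% of protein-coding genes), in 3 of them on the same strand (mRpL13, mRpS14 and mRpL53). The shared part was over 20% of the exon sequence also in mRpL17 (23.6%), mRpL48 (20.8%), mRpS9 (25.1%), mRpS21 (48%) and mRpS24 (55.3%). The 30 tested members with no shared exon sequence and the 42 with some had the same median change in Tet null against wild type IFM (-0.81 each).

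Many members begin close to a gene read in the other direction. A start within 500 bases of a divergent gene was found for 51 members (69.9%), against 24.9% of protein-coding genes. In Tet null against wild type IFM the 38 partners tested with their members had a median log2 change of -0.14, beside -0.79 for those members. Partners that fell included Kua beside mRpS18B (-1.12) and CG5323 beside mRpS28 (-1.39). In wing disc the medians were 0.14 for 43 partners and 0.37 for their members (0.06 and 0.25 over 41 pairs without wild type library 2), and 2 partners fell, norpA beside mRpL33 (-0.62) and CG15653 beside mRpL54 (-1.005).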

How the data were processed

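RNA from dissected tissue was turned into Ovation SoLo libraries and sequenced from both ends. According to the study's methods and the submitters' processing notes, reads were trimmed (the methods name Cutadapt, the notes Trimmomatic 0.32), aligned to dm6 with HISAT2 2.1.0 and counted per gene with HTSeq 0.11.2 on an Ensembl annotation, and RPKM were computed by the authors in R with DESeq2 1.22.2. The strand setting of the counting is not given in the sources used here. The values deposited were RPKM per library, one table per tissue, written with decimal commas. All columns were matched to samples, leaving 0 unmatched. Median-of-ratios factors of the deposited values were equal within each of 3 sets (Tet null with wild type IFM, Tet-CD with Tet-GFP IFM, and wing disc), which shows a scaling made within sets. Low values were whole multiples of 1 read per kilobase within 2% for 98.1% to 99.7% of them, from which reads per library were estimated.

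The tables hold no counts, so genes with a mean of at least 0.5 RPKM in the libraries compared were tested as log2(RPKM + 0.5) with limma 3.58.1 (lmFit, eBayes with trend) in R 4.3.3, over the whole table, with Benjamini-Hochberg adjustment. A call needed an adjusted p under 0.05 and a change over 1.5-fold. Scripts were tested on simulated data. Tables and plots were made with Python 3.11.15, pandas 2.3.3, numpy 2.4.6 and matplotlib 3.10.9. Positions and overlaps came from the BDGP6.54 annotation of Ensembl release 115, which held 17850 of 17890 identifiers of the IFM table. No sequences are shown.

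The members and the gene lists were chosen with earlier results of these data known. The text names all members called, the 3 with the lowest and highest change per comparison, the 3 highest and lowest levels, members not tested, members against the majority, those that overlap another gene by over 20% or on the same strand, and members with set roles. Bacterial and added families were split by number (L1 to L36 and S1 to S21 against higher numbers). Labels number the wing disc libraries 1 to 3 in both groups. Deviations of same-numbered libraries from their group means correlated over all genes at r of 0.176, 0.303 and 0.155. Between libraries of unlike number r ranged from -0.306 to 0.191, the highest for Tet null 1 with wild type 3. Pairing by number was thus borne out only in part. The main fit took no pairs, and the number entered as a block only in an alternative. Alternatives were the pseudocount, the limit on low values, the scaling, the fit, a length correction, the replicate block and leaving out each library.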

Additional observations from a re-analysis of the deposited data

Results flagged for a closer look

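The change of mRpL37, a large subunit protein added in mitochondria, differed between the alleles in IFM. The log2 change in Tet null over wild type minus that in Tet-CD over Tet-GFP was -3.33 ± 0.42 (limma contrast over all genes, adjusted p = 0.0436). Tet null stood at 3.003 and 2.61 RPKM, wild type at 14.4 and 16.9, Tet-CD at 12.7 and 21.3 and Tet-GFP at 6.44 and 9.29. The call was lost in 7 of the 8 fits that left out 1 library.

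In 19 members every Tet null library was below every wild type library in IFM and above every wild type library in wing disc. The difference between the tissues was not tested, since the tables were scaled apart. No IFM or wing disc group had 4 or more libraries, so single libraries were not tested against their group.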

How the results depend on the processing

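Few libraries and small margins limit the calls, while the direction of the family in Tet null IFM and wing disc held under every alternative run. In fits that left out 1 library of a pair, the lone library was assumed to vary like the other group. The number of members called in Tet null against wild type IFM (7) was 1 with no limit on low values, 4 with all 4 IFM groups in 1 fit, 4 with the replicate number as a replicate block and 0 to 0 with single libraries left out, where the median ranged from -1.05 to -0.53. Pairing by number was not borne out for Tet null with wild type IFM (2 pairs, r 0.0864). Same-numbered columns of Tet-CD and Tet-GFP did go together (r 0.475). Against Tet-GFP the count (0) was 1 with all 4 groups in 1 fit, and the median ranged from -0.99 to -0.51. In wing disc the count (6) was 3 at a pseudocount of 0.1, 2 with no limit on low values, 0 with eBayes without trend, 2 with a length correction, 14 with the block and that correction, 3 with the receptor background subtracted (chosen after seeing the data) and 2 to 14 with single libraries left out. For the difference between the alleles the count (1) was 0 with no limit and 0 to 1 with single libraries left out. With the column number as a block, also chosen after seeing the data, Tet-CD against Tet-GFP had no call and a median of -0.00. A block was not run for the comparisons across IFM sets or the difference, since column numbers of Tet-CD and Tet-GFP (1 and 3) differ from the labels (1 and 2).

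Between the controls and in Tet-CD against Tet-GFP the lean of the family turned when single libraries were left out (medians -0.24 to 0.09 and -0.29 to 0.28), and in the difference between the alleles the median ranged from -1.03 to -0.48. Non-overlap counts, list and partner medians and marker sums without wild type wing disc library 2 were added after seeing the data. Signs of some named members turned. With a length correction mRpS6 stood at 0.0637 in Tet null against wild type IFM, also with the block, and mRpS28 at 0.00568 against Tet-GFP. With single libraries left out, the values against wild type ranged from -0.26 to 0.31 for mRpL18, -0.34 to 0.0872 for mRpS6 and -0.37 to 0.0488 for mRpS5. Against Tet-GFP they ranged from -0.18 to 0.25 for mRpS6, -0.27 to 0.10 for mRpS28 and -0.46 to 0.0471 for mRpL39, and in the difference from -0.14 to 0.60 for mRpL24 and -0.0738 to 0.64 for mRpS21. Among alternatives that kept all libraries, 343 values of single members kept their side of the threshold, 45 lost it, 1 gained it and 3 turned.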

Other observations

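The nuclear genes of the respiratory chain, whose products join the subunits made by the mitochondrial ribosome, were mostly below 0 in the catalytic mutant. In Tet-CD against Tet-GFP IFM 65 of 66 were below 0, with a median log2 change of -0.26 and none called by limma. The mitochondrial ribosomal proteins stood at a median of -0.00. Over the 86 chain genes listed, the median level was 214 and 260 RPKM in Tet-CD libraries 1 and 3. It was 277 and 277 RPKM in Tet-GFP, so Tet-CD library 1 was the further below. The chain list was not read with single libraries left out. Transcripts of the mitochondrial genome had a median log2 change of -0.30 in this comparison (25 of 32 below 0). Their median levels were 95.9 and 319 RPKM in Tet-CD and 197 and 453 in Tet-GFP. Cytosolic ribosomal proteins had a median log2 change of -0.08 (69 of 84 below 0). In Tet null against wild type IFM the chain had a median of -0.17 and the ribosomal proteins one of -0.81. These are descriptions of lists, with no test of the lists.

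The wing disc table lists mRpS5 and mRpS34 under identifiers other than those of the IFM table. Under them mRpS5 stood at 33.7, 26.4 and 34.1 RPKM in Tet null and 29.3, 17.6 and 28.4 in wild type, and mRpS34 at 29.6, 20.7 and 25.2 against 21.1, 14.5 and 23.9. The groups overlapped in both genes.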
